A study of Drosophila melanogaster with 2 samples.

Results

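The 4 genes described here encode Apterous (ap), a LIM homeodomain transcription factor of Drosophila melanogaster, and 3 proteins that set its activity: Chip (Chi), Ssdp and Beadex (Bx). They are 4 of 13968 protein-coding genes of the Ensembl BDGP6 annotation. A peak was counted as belonging to a gene when its summit lay inside the gene or was nearer to its start site than to that of any other protein-coding gene. By this rule 3 of the 3184 peaks of the conservative list belonged to them, 2 to ap and 1 to Bx. The replicates' own lists of all candidate peaks gave 70 of 82646 in replicate 1 and 90 of 102850 in replicate 2. The rule used gene names and positions, and no signal.

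The peaks came from chromatin immunoprecipitation followed by sequencing (ChIP-seq) in 1 group of embryos aged 0 to 24 h, taken as whole organisms, with 2 biological replicates per the labels. The strain, labelled ap-GFP, carried an insertion that expresses an ap-eGFP fusion protein, and an anti-GFP antibody pulled it down, although the antibody field of the labels reads ap. The fragments were sonicated to 200 to 800 bp. There was no second genotype, stage or treatment, and no control immunoprecipitation was analysed here, so no contrast between conditions could be tested. The sources used here do not say how much of the ap locus the construct holds, and reads from a construct and from the native gene are the same. Each library mixes every embryonic cell type, so fewer cells with the protein on a site and less of it per cell cannot be told apart.

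LIM homeodomain proteins bind AT-rich DNA through the homeodomain, and their LIM domains hold the cofactor Chip, the fly Ldb protein. Chip dimerises and so joins 2 Apterous molecules into an active complex, and Ssdp, a single-stranded DNA-binding protein, binds Chip and is needed for that activity. Beadex, also called dLMO, is a LIM-only protein without a homeodomain that competes with Apterous for Chip. Beadex is itself a target of Apterous in the wing, so the genes form a regulatory loop. In embryos ap is known from subsets of interneurons, the neurons of the ap cluster and the lateral transverse muscles.

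The Bx peak carried the highest signal at any of the 4 genes, and the strongest Ssdp candidate lay at the edge of the conservative list, so the reference sequences of both are shown. They are read from the RefSeq release 6 assembly on the plus strand of dm6, chrX:18546842-18547137 for Bx and chr3R:18197184-18197479 for Ssdp. Both are 296 bp, intronic, and free of annotated exons of any transcript. Capitals mark the matches to the 7 motifs searched, on both strands.
Bx: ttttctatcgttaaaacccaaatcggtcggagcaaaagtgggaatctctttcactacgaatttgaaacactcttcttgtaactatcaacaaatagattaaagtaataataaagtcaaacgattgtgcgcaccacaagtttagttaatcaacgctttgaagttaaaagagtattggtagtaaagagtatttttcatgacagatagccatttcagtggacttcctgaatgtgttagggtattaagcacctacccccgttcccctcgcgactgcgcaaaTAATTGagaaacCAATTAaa
Ssdp: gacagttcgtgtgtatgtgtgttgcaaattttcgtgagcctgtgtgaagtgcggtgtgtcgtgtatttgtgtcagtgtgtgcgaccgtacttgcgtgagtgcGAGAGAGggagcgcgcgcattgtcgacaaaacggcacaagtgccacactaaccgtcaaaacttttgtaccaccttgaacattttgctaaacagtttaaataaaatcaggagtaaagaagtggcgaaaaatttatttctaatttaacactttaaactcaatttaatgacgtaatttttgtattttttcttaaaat
The Bx sequence held 2 TAATTG homeodomain sites, beginning 128 and 140 bp after the summit, the later one on the minus strand and so written CAATTA. The Ssdp sequence held 1 GAGAGAG, the repeat bound by GAGA factor, beginning 46 bp before its summit.

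Among the other motifs searched was TAATTA, the core LIM homeodomain site. Factors of the GATA family such as Pannier were represented by AGATAA, and the dimers of bHLH proteins by the E-boxes CAGCTG and, for other members of that family, CACCTG. The DRE was searched as TATCGATA. Neither sequence held any of them. Over the whole length of all 3184 conservative peaks, TAATTG was present in 23.9%, GAGAGAG in 5.21% and TAATTA in 21.8% (exact binomial 95% interval for TAATTA 20.4 to 23.3). AGATAA was present in 17.3%, CAGCTG in 11.7%, CACCTG in 7.22% and TATCGATA in 2.67%. No match overlapped another in the peaks of the 4 genes. The stronger ap peak held 1 CACCTG match, beginning 98 bp before its summit, and the strongest Chi candidate held 1 CAGCTG match, 108 bp after its summit. TAATTA lay within 50 bp of none of the 3 conservative summits of these genes, against 11.4% of all conservative summits (exact binomial 95% interval 10.3 to 12.5). With windows of 100 and 150 bp on each side the count was still 0 of 3, beside 18.5% and 22.7% of all summits. The Bx summit was AT-rich, with a GC content of 30.7% within 50 bp. The values at the strongest peak or candidate were 44.6% for ap, 47.5% for Ssdp and 55.4% for Chi, whose candidate lies in coding sequence. All conservative summits had 33.0% ± 9.89 (SD, n = 3184 windows).

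The ap gene (FBgn0267978) occupies 5706202 to 5727525 on 2R, minus strand, with 3 annotated start sites. Its strongest peak spanned 5734396 to 5734691, in intergenic sequence 7019 bp upstream of the outermost start site. On its other side the nearest protein-coding start site was 19973 bp away. The pooled signal, in the authors' units, was 72.2, higher than 30.2% of the conservative peaks, whose median was 93.5. Replicate 1 had a signal of 44.0 there and replicate 2 had 33.2, a mean of 38.6 ± 7.59 (SD, n = 2). Replicate 2 was therefore the lower, with a log2 ratio of replicate 2 to replicate 1 of -0.40. Over the 3134 conservative peaks with a candidate in both replicates the log2 ratio was 0.03 ± 0.43 (SD across peaks), and 14.9% of them had a lower ratio than ap.

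The replicates parted on whether this ap site was a called peak. Replicate 1's thresholded list held it, with an irreproducible discovery rate (IDR) of 0.00517. The IDR measures how well a peak's rank repeats between 2 read sets, and the highest value in the conservative list was 0.00999. Replicate 2's thresholded list did not hold it. Its candidate there had an IDR of 0.288 and a summit 111 bp farther from the gene than the pooled one, whereas the summit of replicate 1 coincided with the pooled one. Of all conservative peaks, 284 (8.92%) overlapped a thresholded peak of replicate 1 and none of replicate 2, and 1531 (48.1%) one of both. The nearest thresholded peak of replicate 2 was 247 kb from the ap start sites, 98 bp from the start of BubR1, a spindle checkpoint kinase gene.

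The other conservative peak of ap, from 5734596 to 5734891, overlapped the first by 96 bp and had a pooled signal of 4.49. Signals under 5 were found at 12 of 3184 conservative peaks, or 0.377%. No separate candidate of either replicate answered to it, since the strongest overlapping candidate was the same as for the stronger peak. It is therefore counted as a peak of the list but gives no further replicate value. In all, 74 conservative peaks (2.32%) overlapped a stronger one.

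The replicates differed in the candidates inside the ap gene. Replicate 1 had 19 candidates that belonged to ap, 9 with the summit inside the gene and 10 upstream. Their signals ran from 5.77 to 44.0 with a median of 15.9, beside 13.3 over the whole list. Inside the gene 6 lay in introns, 1 in a coding exon and 2 in the 3′ UTR. The strongest of these was intronic, from 5715640 to 5715915, with a signal of 28.6 and an IDR of 0.0140, just outside the thresholded range. Replicate 2 had 9 candidates that belonged to ap, all upstream, with signals from 5.43 to 33.2 and a median of 9.65, beside 11.3 over its list. None had its summit inside the gene. At the mean candidate density of 2R the gene's length would hold 13.1 in replicate 1 and 16.0 in replicate 2.

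**Figure D1:**
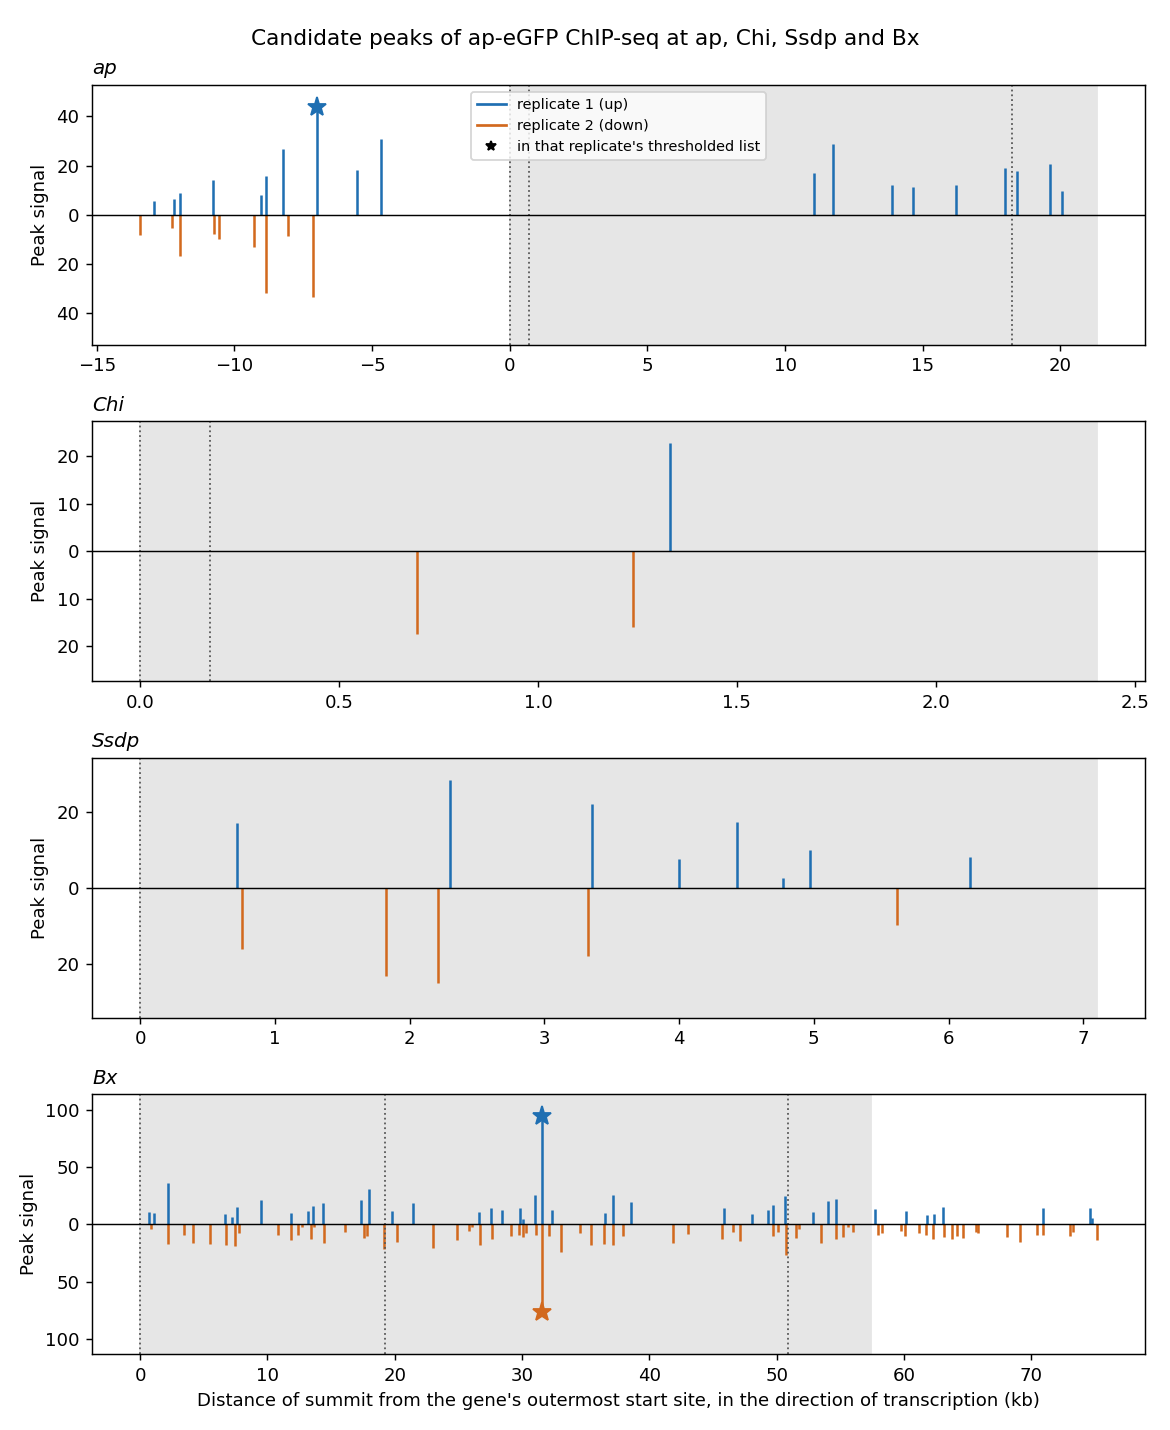
Candidate peaks of replicate 1 (upward lines) and replicate 2 (downward lines) at the 4 genes, by signal in the authors' units and distance in kb from the outermost start site in the direction of transcription. Grey spans are the genes, dotted lines are start sites and stars are peaks of that replicate's thresholded list: 1 at ap in replicate 1 and 1 at Bx in each replicate, with no line inside ap in replicate 2.

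In replicate 2 the empty stretch was longer than the gene. No candidate summit lay between 5684031 and 5734655 on 2R, a gap of 50.6 kb that covered all of ap and the neighbouring genes vlc and Cndp2. It ranked 51 of 102843 gaps between neighbouring summits of that list, whose median gap was 834 bp, and 25 of 102573 when chromosomes 4 and Y were left out. Within the same stretch replicate 1 had 33 candidates, with signals from 4.47 to 44.0 and a median of 17.6, of which 23 were above the median of its list. These include the strongest ap site, because the summit of replicate 2's own candidate there is the end of the gap. The longest gap of replicate 1 that touched ap was 15.7 kb, rank 485 of 82639. It ran from 5716465 to 5732201 and held both upstream start sites of the gene.

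The pooled list behind the conservative peaks followed replicate 2 here. It had 10 candidates that belonged to ap and none inside the gene, with a gap of 49.8 kb that ended at the summit of the ap peak itself. Such gaps were rare at long genes. Of 1020 protein-coding genes of 20 kb or more, 7 had no candidate summit inside in replicate 1 (0.686%) and 15 in replicate 2 (1.47%), where ap was among them. Of those 15, 8 lay on chromosome 4 or Y, and 7 elsewhere. Beside ap these were lola, nrm, par-1, sd, sxc and vtd, named here after their values were seen, and each of the 7 had 2 to 13 candidates in replicate 1. The largest was lola, at 61.4 kb, with 13 in replicate 1 and 0 in the pooled list.

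Candidates were also sparser than the mean of the arm in the wider surroundings of ap, in both replicates. In replicate 1 the density was 0.373 per kb over the 1 Mb on the side of lower coordinates and 0.538 per kb over the 1 Mb on the other side, beside 0.616 over 2R. In replicate 2 the values were 0.496, 0.571 and 0.751. The part of this low density in the empty ap gene of replicate 2 was not tested.

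**Figure D2:**
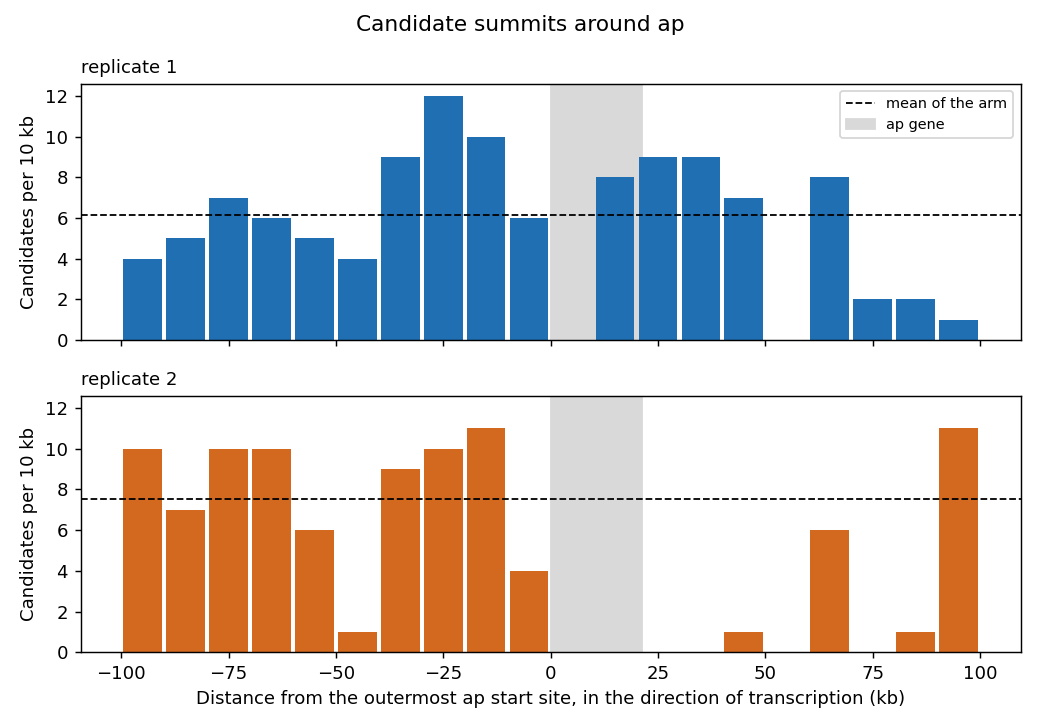
Number of candidate summits per 10 kb from 100 kb upstream to 100 kb downstream of the outermost ap start site, in replicate 1 (top) and replicate 2 (bottom), with the mean of the arm as a dashed line and the ap gene in grey. Replicate 2 has no candidate in the 4 bins from the start site to 40 kb downstream, where replicate 1 has 0, 8, 9 and 9.

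At the start sites of ap, replicate 1 had 2 candidates within 500 bp of the most downstream one, at 5709292, 205 and 256 bp away. Their signals were 17.6 and 19.2, and the IDR of the stronger was 0.840, far above the cutoff. In replicate 2 the candidate nearest to that start site was 25.3 kb away. Neither replicate had one within 500 bp of the other 2 start sites. The summits nearest to the outermost one were 4.68 kb away in replicate 1 and 7.13 kb in replicate 2. ap was thus 1 of 2 genes of the 4 with a start-site candidate in replicate 1, and Bx the other. In replicate 2 Bx alone had them. Among all protein-coding genes, 62.4% had a candidate within 500 bp of a start site in replicate 1 and 66.1% in replicate 2.

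Bx (FBgn0265598), the LIM-only antagonist, lies on the plus strand of X from 18515428 to 18572809 and had the only peak of these genes that every thresholded list held. The peak spanned 18546842 to 18547137, in an intron. Its summit lay 12327 bp downstream of the middle of the 3 start sites and 19316 bp upstream of the last one. Its pooled signal was 171, higher than 80.9% of the conservative peaks, at an IDR of 2.16e-05. Replicate 1 gave 94.6 and replicate 2 gave 76.4, a mean of 85.5 ± 12.9 (SD, n = 2). Both values were above the medians of the replicates' thresholded lists, 64.7 and 62.6. Their summits lay 15 and 13 bp from the pooled summit, and the log2 ratio of -0.31 was lower than that of all but 20.6% of the conservative peaks. Replicate 2 was again the lower.

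No conservative summit of ap or Bx was at a promoter. None of the 3 lay within 500 bp of an annotated start site, which held 42.3% of all conservative summits (exact binomial 95% interval 40.6 to 44.0). The share of conservative summits farther from a protein-coding start site was 17.1% for the stronger ap peak and 8.76% for the Bx peak. With 3 summits, 2 of them overlapping, no more than this description can be drawn from the count.

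**Figure D3:**
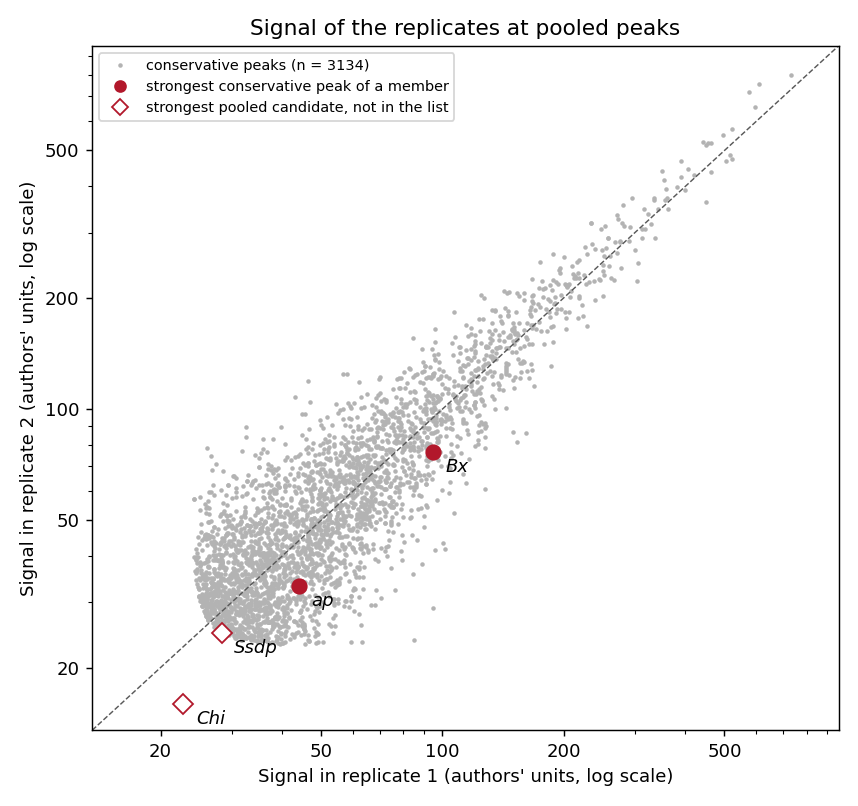
Signal of replicate 1 (x axis) against replicate 2 (y axis), both in the authors' units on log scales, at the 3134 conservative peaks with a candidate in both (grey) and at the strongest peak of each of the 4 genes. Filled circles are conservative peaks (ap 44.0 and 33.2, Bx 94.6 and 76.4), open diamonds are candidates outside the list (Ssdp 28.4 and 24.9, Chi 22.8 and 15.9), and all 4 lie below the dashed line of equal signal.

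Around its strong peak Bx had many weak candidates. Replicate 1 had 42, of which 34 were inside the gene, and replicate 2 had 74, of which 54 were inside. Their median signals, 14.1 and 10.5, were near those of the whole lists, 13.3 and 11.3. The next strongest after the peak had signals of 36.1 in replicate 1 and 26.6 in replicate 2, so the peak stood 2.62 and 2.87 times above the rest of the gene. In replicate 1, 31 of the 42 (73.8%) overlapped a candidate of replicate 2, beside 60.0% of its whole list. In replicate 2, 31 of the 74 (41.9%) overlapped one of replicate 1, beside 48.1% of its list. At the mean density of X the gene would hold 32.1 in replicate 1 and 41.4 in replicate 2, so the count was close to the mean of the chromosome in the former and above it in the latter. HisRS, a histidyl-tRNA synthetase gene, starts at the same base as Bx, 18515428. The candidate of 36.1 lies in HisRS and in an intron of Bx, 2211 bp from that shared start site. In the search for the nearest start site, the shared one was counted for HisRS alone.

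The most downstream start site of Bx, at 18566306, had a candidate in both replicates. In replicate 1 it had a signal of 24.6, 222 bp away, at an IDR of 0.133. In replicate 2 it had 26.6, 121 bp away, at an IDR of 0.435. The pooled list had a candidate 181 bp upstream with a signal of 53.5 and an IDR of 0.0141, above the highest conservative value. The middle start site, at 18534663, had a candidate in replicate 2 alone, with a signal of 21.5, 48 bp upstream. No candidate of either replicate lay within 500 bp of the outermost start site, at 18515428.

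Ssdp (FBgn0011481), which stabilises Chip complexes, occupies 18192494 to 18199595 on 3R, minus strand, with 1 start site. It had no peak in any of the 4 thresholded lists. Replicate 1 had 8 candidates and replicate 2 had 5, all inside the gene, with signals from 2.53 to 28.4 and from 9.78 to 24.9. The strongest was intronic in both, 2302 and 2214 bp downstream of the start site. Replicate 1 had 28.4 there and replicate 2 had 24.9, a mean of 26.6 ± 2.48 (SD, n = 2), at IDRs of 0.390 and 0.297. Both are therefore above 94.5% of their own lists by signal, while neither repeated well by IDR. No candidate of either replicate lay within 500 bp of the start site, the nearest being 636 and 619 bp away.

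In the pooled list behind the conservative peaks, the same Ssdp site came close to being listed. The pooled candidate whose sequence is given above had a signal of 46.5 and an IDR of 0.00993, below the highest conservative value of 0.00999, and yet it was absent from the conservative list. It was 1 of 86 ranked peaks of 3270 within that value that were not listed (2.63%), with signals from 18.5 to 1205 and a median of 88.8. The sources used here do not say why these were left out. In the other pooled list the IDR of the Ssdp candidate was 0.298. The nearest conservative peak was 10.6 kb from the Ssdp start site, 110 bp from the start of MED17, a Mediator subunit gene.

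Chi (FBgn0013764), the Ldb cofactor that all the complexes share, occupies 24031538 to 24033943 on 2R, minus strand, with 2 start sites. It too had no thresholded peak. Replicate 1 had 1 candidate, with a signal of 22.8 and an IDR of 0.300. Replicate 2 had 2, with signals of 17.4 and 15.9 and IDRs of 0.844 and 0.663. All 3 had their summits in the coding exon, and that of replicate 1 overlapped the weaker of replicate 2. The pooled candidate at this place had a signal of 41.7, with an IDR of 0.221 in the list behind the conservative peaks and 0.0289 in the other pooled list, so both values were above the cutoff. Its summit was nearest to the start site of CG30172 and belonged to Chi by lying inside it. The nearest conservative peak was 11.4 kb away, in an intron of tsr, the cofilin gene, with signals of 78.3 in replicate 1's and 114 in replicate 2's thresholded list.

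At the place of each gene's strongest pooled peak, the order of signal was Bx, ap, Ssdp and Chi in both replicates. In replicate 1 the values were 94.6, 44.0, 28.4 and 22.8, and in replicate 2 they were 76.4, 33.2, 24.9 and 15.9. The strongest was taken from unlike numbers of pooled candidates: 108 at Bx, 10 at ap, 7 at Ssdp and 2 at Chi. The Bx and ap means were 85.5 ± 12.9 and 38.6 ± 7.59 (SD, n = 2). The Ssdp and Chi means were 26.6 ± 2.48 and 19.3 ± 4.84 (SD, n = 2). Ssdp was the higher of these in both replicates. Each SD is that of 2 replicate values, and the order of the genes was not tested. Replicate 2 was the lower at each of the 4, with log2 ratios from -0.52 to -0.19. Over the 3134 conservative peaks with a candidate in both replicates the log2 ratio was 0.03 ± 0.43 (SD across peaks). At Chi the value of replicate 2 is the weaker of its 2 candidates, the one that overlaps the pooled one.

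Peaks at 2 of 4 genes are to be read against the background and against the room each gene has. Among all protein-coding genes, 17.4% had a summit inside or nearest in the conservative list and 18.1% in the less strict thresholded list, which held the same 3 peaks of ap and Bx among its 3289. In the replicates' own thresholded lists the shares were 12.2% of genes in replicate 1, which had a peak at ap and at Bx, and 13.5% in replicate 2, which had one at Bx. A gene's territory is the length of genome for which its start site is the nearest. It was 35.0 kb for ap and, without the start site shared with HisRS, 60.3 kb for Bx. Both are in the tenth of genes with the largest territories, of which 37.8% had a conservative peak. Chi had 1.36 kb and Ssdp 3.95 kb, and in the tenth each falls in the shares were 9.81% and 13.4%. Genes with a conservative peak had a median strongest signal of 109. The ap value was above 22.4% of them and the Bx value above 74.8%.

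The conservative peaks most like the strongest one of each gene were taken by Euclidean distance between the log2 signals of both replicates. All had summits in an annotated intron, as the Bx peak has and the ap peak has not, though not always in the gene named. For ap the 3 nearest of the list were those of CG12985 (43.7 and 33.2, distance 0.01), the Hox gene abd-A (43.7 and 33.0, distance 0.01) and rdx (43.9 and 32.9, distance 0.01). The CG12985 summit lay in an intron of mnb. The abd-A summit lay 7952 bp from the start site, in introns of MSAmiP and of the noncoding iab8. For Bx they were CG10543 (95.2 and 77.8, distance 0.03), CngA (92.8 and 77.0, distance 0.03) and S (92.7 and 76.9, distance 0.03).

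Among genes that act with ap or Chi, the strongest conservative peaks had pooled signals from 64.7 to 603. Of 35 genes on 5 lists, 14 had one, or 40%, beside 17.4% of all protein-coding genes. The median territory of the listed genes was 18.8 kb against 4.25 kb for all. In the tenth of genes with the largest territories the share was 37.8%. The lists were chosen with earlier results of these data known, and a difference from genes of like territory was not tested. Among 5 other LIM homeodomain genes 3 had a peak: tup (pooled signal 103), Awh (91.8) and Lim1 (86.2), each between ap and Bx. Of 7 genes for partners of Chi, osa had 603 and ush had 207, while pnr, ac, sc, da and su(Hw) had none. Osa is a subunit of the Brahma chromatin remodelling complex that binds Chip, and U-shaped is a cofactor of Pannier. The osa peak was the highest of the 14, with 292 and 311 in the replicates, and lay in an intron that also holds a noncoding exon.

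Dorsal wing genes downstream of ap had a conservative peak at 5 of 8: mew, an integrin subunit gene (187), bs (125), caps (121), Dr, a homeobox gene (102), and fng, the glycosyltransferase of the dorsoventral boundary (67.3). Ser, trn and vg had none. At fng the replicates gave 43.8 and 25.0, near the ap value of 44.0 in replicate 1 and below that of 33.2 in replicate 2. Neither replicate's thresholded list held the fng peak. Of 11 genes of the neurons of the ap cluster 4 had one: wit, a BMP receptor gene (279), grh (182), dac (70.9) and kn (64.7). The kn and dac peaks were below that of ap, and neither was in a replicate's own list. Of 5 genes of the lateral transverse muscles only Dr, which is on 2 lists, had a peak. The peaks of mew, bs, kn and wit lay inside the gene and nearest to the start site of another.

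**Figure D4:**
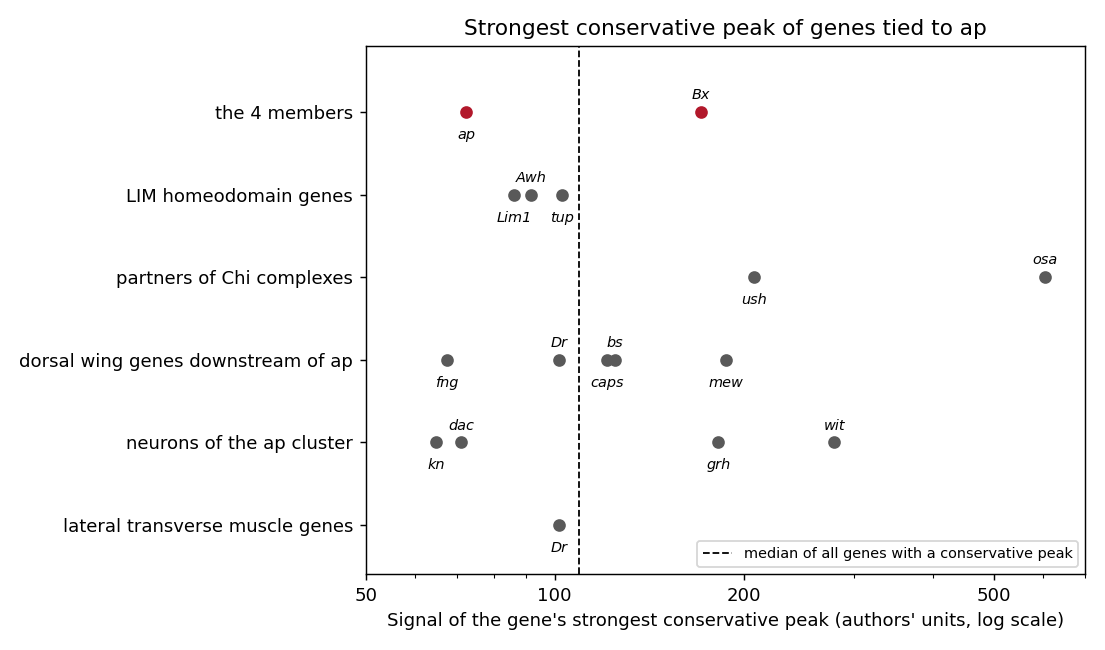
Signal of the strongest conservative peak (x axis, authors' units, log scale) of each gene with one, by list, with ap and Bx in red and the median of all genes with a conservative peak, 109, as a dashed line. ap at 72.2 lies among the weaker genes and Bx at 171 among the stronger, while Chi and Ssdp have no point.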

How the data were processed

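ChIP-seq peaks of ap-eGFP embryos were taken from 8 lists that the authors deposited, made by ENCODE on the dm6 assembly per the labels. Aligner, peak caller and their settings: not given in the sources used here. For each replicate there is a ranked list with every candidate and a thresholded list. The remaining 4 lists were made by pooling both replicates. The deposited signal of a peak is the authors' value, with no stated reference. It was used to describe and rank peaks within a list, and to set the 2 replicates side by side at the same site. No common scale of the replicates is stated, so their ratios, means and SDs are descriptions only. The deposited score is a scaled IDR, and the lowest in each thresholded list was 830. The IDR was computed from the deposited −log10 values in the ranked lists. The depth is unknown because the lists carry no read totals, and intervals cover the counting of peaks only. Values per read set in the pooled lists were left out, since nothing ties them to a replicate.

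Peaks on the 7 assembled chromosomes were assigned to genes of Ensembl release 115 by summit. The signal of a replicate at a pooled peak is that of its strongest candidate overlapping by at least 1 bp. Sequences are from RefSeq release 6, whose chromosome lengths equal those of dm6. The design has 1 group of 2 replicates, so no test was made, and values are means ± SD, shares with exact binomial (Clopper-Pearson) 95% intervals, and places in the distribution of all peaks. p-values are not given. The genes, lists and motifs were chosen with earlier results of these data known. Named are the 4 genes with every thresholded peak, every listed pathway gene with a conservative peak, the 3 peaks most like each gene's strongest one, neighbouring genes, and in the ranked lists the strongest candidate and those within 500 bp of a start site. The list gene CG32105 had no match and is not analysed here. Alternatives changed the assignment, the list, the replicate, the overlap, the distance and the window. Assignment and gap search were tested on simulated data. Python 3.11.15, numpy 2.4.6, pandas 2.3.3, scipy 1.17.1 and matplotlib 3.10.9 were used.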

Additional observations from a re-analysis of the deposited data

How the results depend on the processing

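Counts and shares of genes were held to 1.5 times their value, and log2 ratios and the place of a peak in its list to 1 SD between replicates. By these limits 24 of 35 alternatives kept the value and 11 moved it. Only the log2 ratios can change sign, and their alternatives returned the same values as the main setting. The 3 conservative peaks of ap and Bx became 1 when the summit had to lie inside the gene, which leaves out both ap peaks, and 1 in the stronger part of the list by signal, where Bx remained. The background share of genes with a peak moved from 17.4% to 8.99% and 10.3% under the same choices. In the replicates' own thresholded lists the count was 1 to 2, the lower without replicate 1. Of the pathway genes, 14 had a peak, 9 in the stronger part of the list and 9 to 11 in the lists of single replicates. In the less strict list the stronger ap peak was above 31.4% and the Bx peak above 81.5% of the list, small shifts counted as moved. These shifts exceed the narrow spread of the replicates' ranked lists, where ap was above 97.7% and 97.2% and Bx above 99.4% and 99.2%. In the replicates' thresholded lists Bx was above 74.2% and 63.7%, a wider spread than its shift. Alternatives chosen after seeing the data concerned the empty ap gene: the count of 0 candidates inside it in replicate 2 was 9 without replicate 2, that is in replicate 1, and stayed 0 when any base of a candidate counted and in both pooled ranked lists, and the gap's rank of 51 was 25 without chromosomes 4 and Y. The count of summits near TAATTA stayed at 0 with windows of 100 and 150 bp, and that of summits near a start site at 0 with a shorter and a longer distance. Of the other motifs, CACCTG came within 100 bp of the ap summit and TAATTG within 150 bp of the Bx summit. No paired analysis was possible because there is 1 group. With no read totals, the depth behind a site listed in 1 replicate alone is unknown.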
